A study of Mus musculus with 4 samples.

Results

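Heme and iron handling was followed through 10 genes in immune cells of the mouse spinal cord. The genes were taken by their symbols from the 31053 genes of the count matrices. No rule on measured values chose them, but earlier results of these data were known at the time. The 10 genes cover heme and haemoglobin uptake (Cd163, Hp, Slc48a1), heme degradation (Hmox1, Blvrb), iron storage (Fth1, Ftl1), iron export (Slc40a1) and iron transport into the cytosol (Slc11a1, Tfrc). The cells were CD45+ cells sorted from the cords of C57BL/6 mice of both sexes, and 4 single-cell libraries were made, 1 per condition. A sham library dissociated in the standard way (standard sham) and a sham library dissociated with actinomycin D (ActD sham), an inhibitor of transcription that limits changes during handling, had laminectomy at the tenth thoracic level without contusion. The libraries at 3 and 14 days post-injury (dpi) came from cords with a moderate contusion at that level, and both were dissociated with ActD. Mice of all groups received flunixin meglumine, ceftiofur sodium and saline after surgery and were perfused with saline before the cord was taken. The ActD sham is therefore the control dissociated the way the injured cords were. The 2 shams differ in dissociation, but as single libraries also in cell make-up and software version, which cannot be told apart. The ActD sham shared its software version with the 14 dpi library, whereas the 3 dpi library and the standard sham had another. Time and software version therefore cannot be told apart in ratios of 3 dpi over the ActD sham or of 14 over 3 dpi.

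Blood enters the cord at a contusion. Haptoglobin, encoded by Hp, binds free haemoglobin, and the complex is taken up by the scavenger receptor CD163. Heme leaves the phagolysosome through the transporter HRG1 (Slc48a1). Heme oxygenase 1 (Hmox1) opens the heme ring and releases iron, carbon monoxide and biliverdin. Blvrb encodes a biliverdin reductase. The iron is stored in ferritin, a cage of heavy (Fth1) and light (Ftl1) chains, or leaves the cell through ferroportin (Slc40a1), the known cellular iron exporter. NRAMP1 (Slc11a1) moves iron out of phagosomes, and the transferrin receptor (Tfrc) brings in iron bound to transferrin.

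Of these genes, 4 carry iron-responsive elements, RNA hairpins to which the iron regulatory proteins bind when iron is scarce. Binding in the 5′ UTR holds back translation of Fth1, Ftl1 and Slc40a1, whereas binding in the 3′ UTR protects the Tfrc mRNA from decay. They are shown because part of the control of these genes does not pass through the RNA level that was measured here. Each stretch of 29 bases is given 5′ to 3′ on the mRNA strand from GRCm38, with the unpaired C and the 6-base loop in capitals. The hairpins lie at chr19:9982732-9982760 (plus strand) for Fth1, chr7:45459779-45459807 (minus strand) for Ftl1 and chr1:45925465-45925493 (minus strand) for Slc40a1. The Tfrc hairpins lie at chr16:32631219-32631247, chr16:32631598-32631626, chr16:32631663-32631691 and chr16:32631710-32631738 (plus strand).
Fth1, 5′ UTR: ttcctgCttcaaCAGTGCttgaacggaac
Ftl1, 5′ UTR: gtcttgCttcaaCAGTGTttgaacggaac
Slc40a1, 5′ UTR: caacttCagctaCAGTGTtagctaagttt
Tfrc, 3′ UTR: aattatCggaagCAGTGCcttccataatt
Tfrc, 3′ UTR: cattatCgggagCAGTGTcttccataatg
Tfrc, 3′ UTR: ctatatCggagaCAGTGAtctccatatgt
Tfrc, 3′ UTR: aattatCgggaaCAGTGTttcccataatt
The search asked for a C, 5 bases, the loop CAGTG plus A, C or T, and 5 bases that pair with the former 5 (G with T allowed), on the transcript strand of annotated UTRs. It found such a stretch in 211 of 58797 protein-coding transcripts (0.359%) and in 123 of 21901 genes (0.562%). A match describes letters only, and Hmox1, Blvrb, Slc48a1, Cd163, Hp and Slc11a1 had none in their UTRs.

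Per library, 2439 to 11631 cell barcodes and 27447471 to 129935880 unique molecular identifiers (UMIs, each counting 1 captured RNA molecule) were deposited, and 5035 (standard sham), 2135 (ActD sham), 8214 (3 dpi) and 9078 (14 dpi) cells were kept. Between 3 and 36 barcodes were shared by a pair of libraries, 112 in all. Cells were clustered without these genes and named by lists of 10 markers as microglia-like, border macrophage-like, injury macrophage-like, monocyte-like and neutrophil-like, called below by the cell name alone. At 3 dpi there were 955 microglia, 478 border macrophages, 2647 injury macrophages, 537 monocytes and 1830 neutrophils. At 14 dpi the numbers were 1774, 97, 154, 766 and 1206. The ActD sham held 1494 microglia, 121 border macrophages, 22 monocytes and 96 neutrophils, the standard sham 2006, 123, 162 and 388, and no injury macrophages were named in either. A further group with microglial markers but led by Spp1 was kept apart (2349 cells at 14 dpi, 88 in the ActD sham, 118 in the standard sham). All 10 markers were above 0 in every named class, but they were not exclusive. At 3 dpi the summed microglial markers of microglia were 5444 CPM (UMI counts scaled to a common total for each class and library), against 28204 in the ActD sham, and the summed injury macrophage markers were 29362 in microglia, 25812 in border macrophages and 61409 in injury macrophages. The part of these marker shifts in the results below was not tested.

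UMIs of each gene were summed over the cells of a class in a library and are given as CPM of that sum. With a single library per condition there is no replicate and no test between conditions, so intervals (95%) cover counting error only and cannot show how mice differ. A ratio was counted as a difference when it reached 2-fold with at least 20 UMIs in the pair. Shares of cells were taken after each cell had been thinned to 1000 UMIs.

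**Figure D1:**
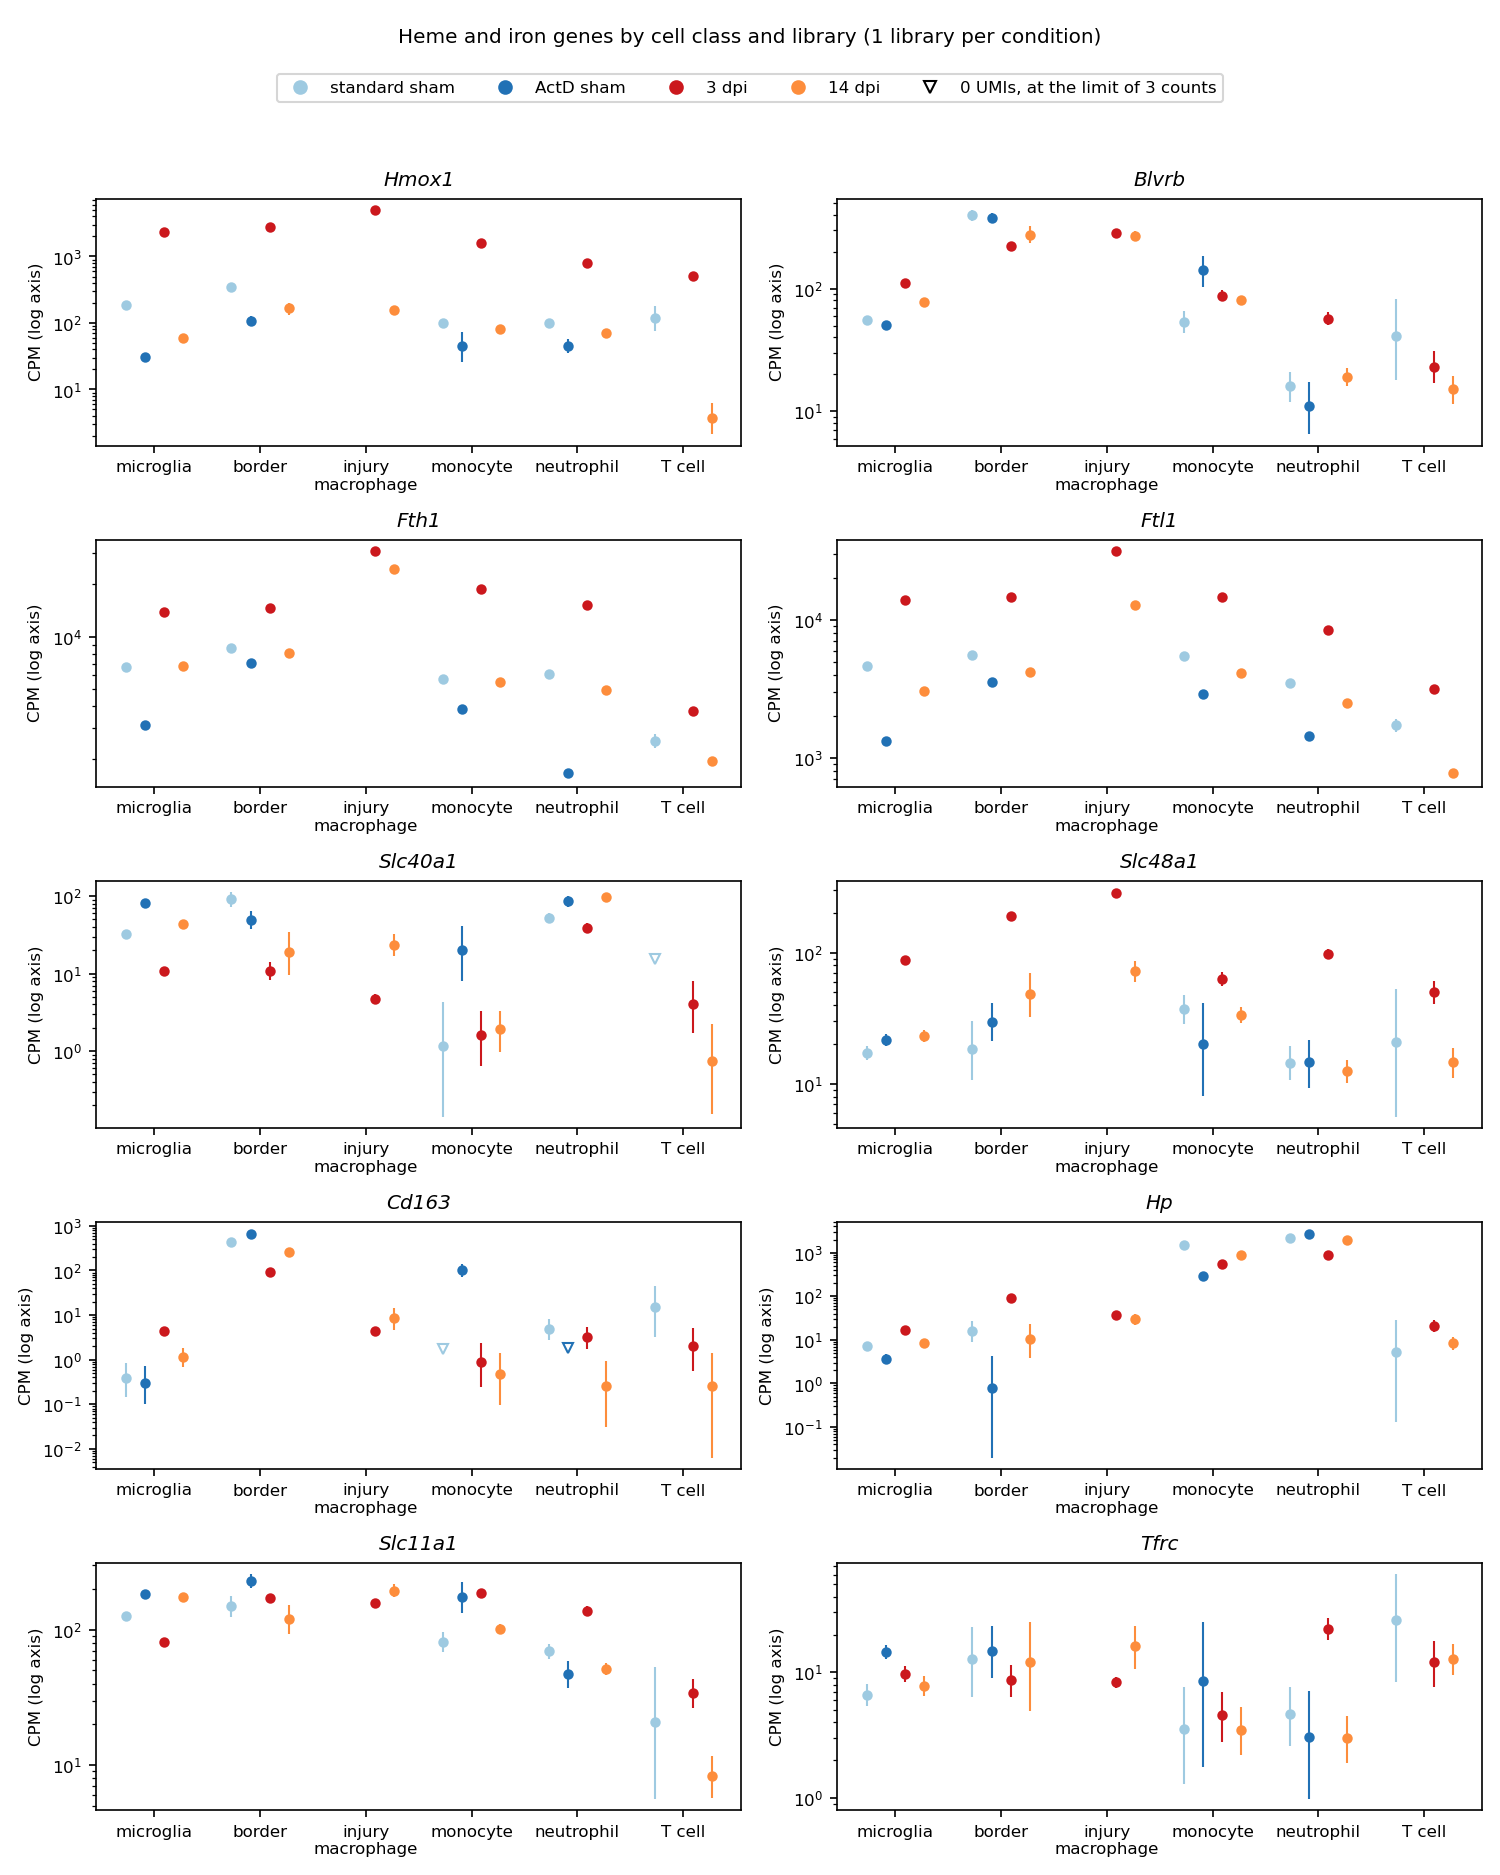
CPM (log axis) of each of the 10 genes in 6 cell classes, with a point per library (colour) and 95% exact Poisson intervals. Hmox1 at 3 dpi lies above every other library in each class, up to 5031 CPM in injury macrophages, and Cd163 stands apart in border macrophages.

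Hmox1, on chr8:75093621-75100589, was far higher at 3 dpi than in any other library. In microglia it was at 188 CPM in the standard sham, 31.2 in the ActD sham, 2359 at 3 dpi and 59.2 at 14 dpi. In border macrophages the values were 345, 107, 2812 and 165 CPM in the same order. Monocytes had 99.6, 45.8, 1582 and 81.8 CPM, and neutrophils 99.8, 45.7, 811 and 70.8 CPM. Injury macrophages had 5031 CPM at 3 dpi and 154 at 14 dpi. The 22 monocytes of the ActD sham were led by genes such as Ace, Ear2 and Treml4, those of the standard sham by Vcan, Chil3 and Ccr2. Genes of both kinds (Ear2, Vcan, Ace) led the largest monocyte cluster at 3 dpi (513 cells). At 14 dpi some monocyte clusters were led by Vcan and others by Ace. The part of this difference in the monocyte values was not tested. In each class the 3 dpi library was the highest by far, the ActD sham was the lowest, and the 14 dpi library lay under the standard sham (in monocytes within the counting intervals).

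Relative to the ActD sham, Hmox1 at 3 dpi was 75.6-fold higher in microglia (interval 69.3 to 82.7), 26.3-fold in border macrophages (22.2 to 31.4), 34.5-fold in monocytes (21.2 to 60.4, resting on 16 UMIs in 22 sham cells) and 17.8-fold in neutrophils (14.1 to 22.6). From 3 to 14 dpi Hmox1 was 39.9-fold lower in microglia, 32.6-fold lower in injury macrophages, 19.3-fold lower in monocytes, 17.02-fold lower in border macrophages and 11.5-fold lower in neutrophils. Microglia were cut differently at the 2 times: the 2349 Spp1-led cells were kept apart at 14 dpi. At 3 dpi no such group was kept apart, and Spp1 was found in 99.9% of microglia (23931 CPM). At 14 dpi Hmox1 was 1.90-fold above the ActD sham in microglia (1.70 to 2.12), which did not reach 2-fold. That call depended on the setting, since the log2 ratio went from 0.92 to 1.24 with trimmed-mean scaling (TMM, which sets the level by the bulk of the genes) and to 1.32 with the Spp1-led cells counted as microglia. The Spp1-led cells at 14 dpi had 102 CPM, 3.28-fold above microglia of the ActD sham (2.99 to 3.61). Microglia of the standard sham had 6.03-fold more Hmox1 than those of the ActD sham (5.48 to 6.64).

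Within the 3 dpi library the order of Hmox1 was injury macrophages (5031 CPM, interval 5010 to 5051), border macrophages (2812), microglia (2359), monocytes (1582) and neutrophils (811), and no intervals of neighbours overlapped. T cells, which are not a main site of heme degradation, still had 501 CPM and B cells 606 CPM. At 14 dpi T cells had 3.77 CPM, so that the T cells of the 2 injured libraries differed 133-fold (80.2 to 238). RNA set free from other cells enters droplets, so the T-cell level was used as the background of the library. Hmox1 was 10.04-fold above it in injury macrophages, 5.61-fold in border macrophages, 4.71-fold in microglia and 3.16-fold in monocytes, but 1.62-fold in neutrophils (1.51 to 1.74). The neutrophil value at 3 dpi was thus less than 2-fold above that of T cells. These ratios take no account of depth, with medians of 2287 UMIs in neutrophils, 3655 in T cells, 18401 in microglia and 16532 in injury macrophages. An equal count of free UMIs per droplet gives a higher CPM in shallower cells. Whether neutrophils exceeded the background was not tested.

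Shares of cells were less distinct. After thinning, 78.4% of injury macrophages (76.7 to 79.9), 65.7% of border macrophages, 58.5% of monocytes, 57.3% of neutrophils and 53.7% of microglia (50.4 to 56.9) held a Hmox1 UMI at 3 dpi. In T cells the share was 41.0% (36.7 to 45.4) and in B cells 48.1% (39.3 to 57.0), so a single UMI separated the classes poorly. Before thinning, 97.0% of microglia, 99.7% of injury macrophages and 83.2% of T cells were positive at median depths of 18401, 16532 and 3655 UMIs. Cells with 10 or more Hmox1 UMIs per 1000 made up 18.7% of injury macrophages, 7.44% of microglia, 7.11% of border macrophages and 2.23% of monocytes, against 0.05% of neutrophils and 0 of 505 T cells, which allows a share of up to 0.594%. The tenth of microglia with most Hmox1 held 62.8% of the thinned Hmox1 UMIs of that class, and the corresponding share in injury macrophages was 38.5%. In microglia of the ActD sham 3.35% of thinned cells had a Hmox1 UMI, and 5.32% at 14 dpi.

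**Figure D2:**
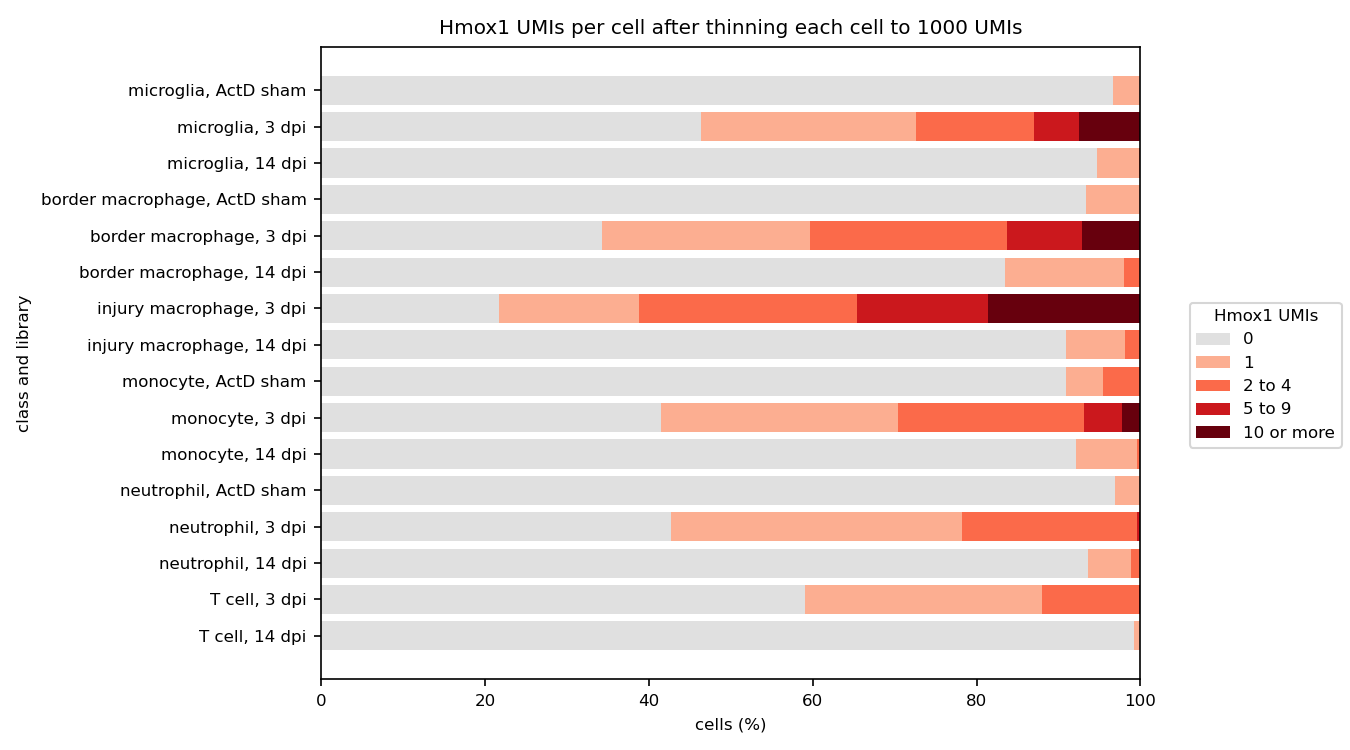
Stacked bars give the percentage of cells of each class and library with 0, 1, 2 to 4, 5 to 9 or 10 or more Hmox1 UMIs after thinning each cell to 1000 UMIs. The darkest segment (10 or more) is widest in injury macrophages at 3 dpi (18.7%) and absent in T cells.

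Blvrb, a biliverdin reductase gene, moved far less. Microglia had 56.0 CPM in the standard sham, 50.9 in the ActD sham, 111 at 3 dpi and 77.6 at 14 dpi. Border macrophages had 394, 376, 221 and 275 CPM in the same order, the opposite direction at 3 dpi. Injury macrophages had 282 CPM at 3 dpi and 266 at 14 dpi. At 3 dpi Blvrb was 2.18-fold higher than in the ActD sham in microglia (2.02 to 2.37) and 1.71-fold lower in border macrophages (1.53 to 1.90). Unlike Hmox1, Blvrb in injury macrophages differed little between 3 and 14 dpi (ratio of 14 over 3 dpi 0.945, 0.858 to 1.04). T cells at 3 dpi had 23.1 CPM.

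Slc48a1, like Hmox1, was highest at 3 dpi, but in microglia and border macrophages it was not higher in the standard than in the ActD sham. It was at 17.3, 21.6, 87.1 and 23.3 CPM in microglia, from the standard sham to the ActD sham, 3 dpi and 14 dpi. In border macrophages it was at 18.6, 29.9, 190 and 48.7 CPM, and in injury macrophages at 284 CPM at 3 dpi and 72.0 at 14 dpi. The 3 dpi library was the highest in each of these classes. The increase over the ActD sham was 4.03-fold in microglia (3.59 to 4.53) and 6.37-fold in border macrophages (4.61 to 9.05). At 14 dpi microglial Slc48a1 was near the sham level (1.08-fold, 0.926 to 1.25), while in border macrophages the interval was wide (1.63-fold, 0.964 to 2.73). T cells at 3 dpi had 50.2 CPM, and microglia exceeded them 1.74-fold, border macrophages 3.79-fold and injury macrophages 5.67-fold. Monocytes and neutrophils also had at least 2-fold more Slc48a1 at 3 dpi than in the ActD sham. Neither class reached 2-fold above T cells of the 3 dpi library. Slc48a1 of T cells was itself at least 2-fold higher at 3 than at 14 dpi.

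Cd163 was a border macrophage gene in these libraries. Border macrophages had 445 CPM in the standard sham, 644 in the ActD sham, 91.0 at 3 dpi and 259 at 14 dpi. Microglia had 0.395, 0.307, 4.46 and 1.15 CPM, and injury macrophages 4.47 and 8.40 CPM at 3 and 14 dpi. Relative to the ActD sham, Cd163 in border macrophages was 7.08-fold lower at 3 dpi (6.33 to 7.93) and 2.49-fold lower at 14 dpi (2.09 to 2.98). The share of thinned border macrophages with a Cd163 UMI was 35.5% in the ActD sham, 5.86% at 3 dpi and 20.6% at 14 dpi (69.4%, 18.0% and 36.1% before thinning), against 0 of 505 thinned T cells at 3 dpi, which allows a share of up to 0.594%. Among the other markers of border macrophages, Mrc1 was at 2483 CPM in the ActD sham, 332 at 3 dpi and 1749 at 14 dpi, and Lyve1 at 680, 95.2 and 240 CPM (60.3%, 11.9% and 27.8% of cells), while the summed marker list was at 11057, 10863 and 8417 CPM. The summed monocyte markers of border macrophages were at 149, 1233 and 609 CPM in the same order, and the monocyte marker Ccr2 was found in 12.4%, 64.9% and 44.3% of the cells. The injury macrophage marker Arg1 was found in 99.8% of border macrophages at 3 dpi (5110 CPM) and in none of the ActD sham. Injury macrophages at 3 dpi had 4670 CPM of Arg1. The summed border macrophage list was not exclusive either: injury macrophages had 6795 CPM of it at 3 dpi and 867 at 14 dpi. The part of these shifts in the Cd163 and Hp values of border macrophages was not tested. The rise from 3 to 14 dpi depended on which cells were called border macrophages: when each library was clustered alone, 273 cells in place of 97 were so named at 14 dpi and the log2 ratio went from 1.51 to -0.18. The monocytes of the ActD sham had 36 Cd163 UMIs in 22 cells (103 CPM) together with the border macrophage markers Mrc1 at 224 CPM (22.7% of cells) and Lyve1 at 28.7 CPM, and Cd163 in monocytes is not compared further.

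Hp was a gene of neutrophils and monocytes. Neutrophils had 2223, 2738, 870 and 1924 CPM (standard sham, then ActD sham, then 3 and 14 dpi), and monocytes 1504, 295, 561 and 901. In neutrophils the 3 dpi library was the lowest, 3.15-fold under the ActD sham (3.01 to 3.29). The summed neutrophil markers were also lowest at 3 dpi, at 54676 CPM against 358942 in the ActD sham and 371935 at 14 dpi. In border macrophages Hp was at 91.7 CPM at 3 dpi against 1 UMI in the ActD sham (0.786 CPM), and 4.35-fold above T cells. In microglia at 3 dpi Hp was at 16.4 CPM, 0.78 times the T-cell level (0.565 to 1.10), and so not above it. The part of free RNA in this value was not tested, and median depths differed (18401 UMIs in microglia, 3655 in T cells).

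**Figure D3:**
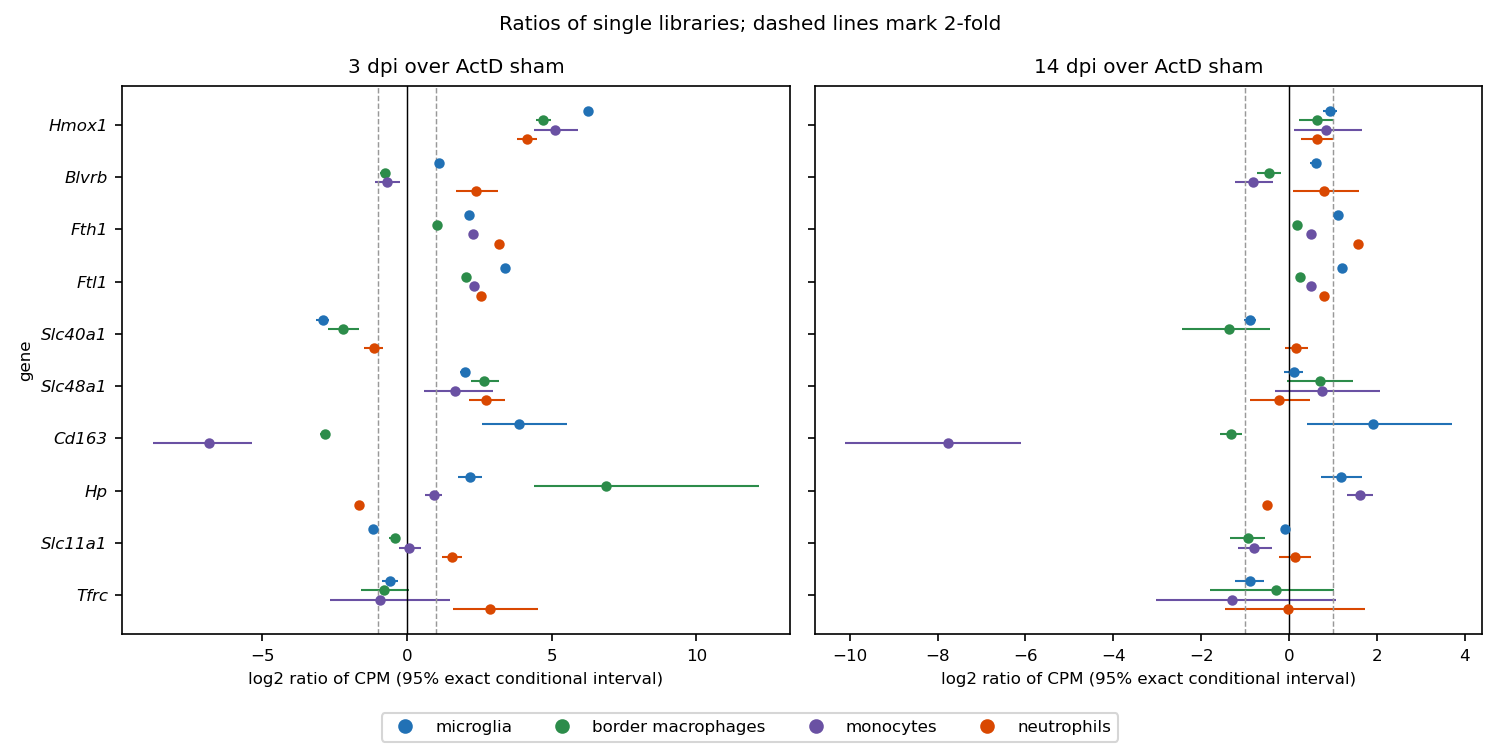
Log2 ratios of CPM over the ActD sham at 3 dpi (left) and 14 dpi (right) for the 10 genes in 4 classes, with 95% exact conditional intervals; pairs with fewer than 20 UMIs or a count of 0 are left out. At 3 dpi Hmox1, Fth1, Ftl1 and Slc48a1 lie right of the 2-fold line in all 4 classes, and Slc40a1 lies left of it in the 3 classes shown. Hmox1 in neutrophils and Slc48a1 in microglia, monocytes and neutrophils did not reach 2-fold above T cells of the 3 dpi library.

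The ferritin genes gave the most UMIs of the set (UMIs are counted at the 3′ end of an RNA, so the values are not scaled by length). Fth1 in microglia was at 6721, 3136, 13811 and 6784 CPM in the 2 shams (standard, ActD) and at 3 and 14 dpi, and Ftl1 at 4619, 1326, 13917 and 3055 CPM. In border macrophages Fth1 was at 8660, 7063, 14648 and 8079 CPM and Ftl1 at 5566, 3577, 14622 and 4228 CPM. The 14 dpi values depended on which cells were called border macrophages. The log2 ratios of Fth1 and Ftl1 over the ActD sham went from 0.194 and 0.2413 to 1.354 and 1.484 with each library clustered alone. With merged libraries they were 1.165 and 1.269. From 3 to 14 dpi Ftl1 went from -1.79 to -0.7742 and -0.8589 in these settings and lost its 2-fold call. Injury macrophages at 3 dpi reached 30927 CPM of Fth1 and 31578 of Ftl1. The 3 dpi library was the highest for both genes in each class.

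The light chain changed more than the heavy chain in microglia and border macrophages. Ftl1 in microglia was 10.5-fold higher at 3 dpi than in the ActD sham (10.3 to 10.6) and Fth1 4.40-fold (4.36 to 4.45). In border macrophages the values were 4.09-fold for Ftl1 and 2.07-fold for Fth1. Neutrophils showed the other order, with 9.07-fold for Fth1 and 5.87-fold for Ftl1. Of the Fth1 and Ftl1 UMIs of microglia, Fth1 made up 70.3% in the ActD sham, 49.8% at 3 dpi and 69.0% at 14 dpi. In border macrophages the shares were 66.4%, 50.04% and 65.6%, and in injury macrophages 49.5% at 3 dpi and 65.5% at 14 dpi. Neutrophils had 53.6%, 64.1% and 66.5%. Monocytes had 57.0%, 56.4% and 57.2%. In the standard sham the shares were 59.3% in microglia and 60.9% in border macrophages, so they differed between the shams as well. T cells had 54.4% at 3 dpi and 71.5% at 14 dpi, so the lower share at 3 dpi also appeared in the background cells of that library. Reads of the near-identical gene Ftl1-ps1 amounted to at most 1.66% of Ftl1 with Ftl1-ps1 in these classes, and how reads were split between the copies is uncertain.

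At 14 dpi Fth1 was still 24431 CPM in injury macrophages (ratio to 3 dpi 0.790), whereas Ftl1 was 2.45-fold lower at 12895 CPM. In microglia Fth1 and Ftl1 at 14 dpi were 2.16-fold and 2.30-fold above the ActD sham. In the Spp1-led cells at 14 dpi Fth1 was at 11682 CPM and Ftl1 at 5951 CPM, 3.73-fold and 4.49-fold above microglia of the ActD sham.

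Slc40a1 went the other way from the storage genes. In microglia it was at 32.6, 80.6, 10.7 and 43.4 CPM in standard sham, in ActD sham, at 3 dpi and at 14 dpi. In border macrophages it was at 90.7, 49.5, 10.9 and 19.1 CPM, and in injury macrophages at 4.75 CPM at 3 dpi and 23.4 at 14 dpi. The 3 dpi library was the lowest in each of these classes. Relative to the ActD sham it was 7.52-fold lower at 3 dpi in microglia (6.50 to 8.73) and 4.56-fold lower in border macrophages (3.15 to 6.61). At 14 dpi it was 4.05-fold above 3 dpi in microglia (3.46 to 4.75) and 4.93-fold above it in injury macrophages (3.41 to 6.95). Neutrophils held it at 51.9, 85.9, 38.7 and 96.2 CPM and were the class with most Slc40a1 at 3 and 14 dpi, whereas monocytes had no more than 1.90 CPM in the standard sham and injured libraries. T cells at 3 dpi had 4.01 CPM, so the level in injury macrophages (ratio 1.18, 0.590 to 2.78) could not be told from that of T cells.

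Slc11a1 and Tfrc showed smaller movements. Slc11a1 in microglia was at 127, 184, 81.6 and 174 CPM (standard sham, then ActD sham, 3 dpi and 14 dpi), 2.26-fold lower at 3 dpi than in the ActD sham (2.12 to 2.40). With TMM that log2 ratio went from -1.17 to -0.72 and no longer reached 2-fold. In neutrophils Slc11a1 was at 69.2, 46.9, 137 and 51.5 CPM, highest at 3 dpi, and the 2-fold call was also lost with TMM (1.55 to 0.79 on the log2 scale). Injury macrophages had 158 and 194 CPM at 3 and 14 dpi. Tfrc was at or below 16.2 CPM in microglia, border and injury macrophages of every library. In microglia it was at 6.64, 14.6, 9.72 and 7.81 CPM and at 3 dpi no higher than in T cells (12.04 CPM, ratio 0.808, 0.527 to 1.29). In neutrophils it was at 22.2 CPM at 3 dpi against 3.05 in the ActD sham (98 against 5 UMIs).

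Counted together, 7 of the 10 genes were at least 2-fold higher in microglia at 3 dpi than in the ActD sham, where 13.7% of 12358 tested genes were, and 2 (Slc40a1, Slc11a1) were lower, as were 32.9% of tested genes. The 7 include Cd163 and Hp, whose counting intervals overlapped those of T cells of that library. The median log2 ratio of the 10 genes was 2.07 and that of all tested genes -0.53, and TMM moved every ratio by 0.45. In border macrophages 5 were higher (12.2% of tested genes) and 2 lower (20.4%), with medians of 0.32 and -0.23. In neutrophils 7 of 9 were higher and 2 lower, but 52.3% of all tested genes were higher there and 7.03% lower. The median of all genes was 1.07 in that comparison and TMM moved the ratios by -0.76, so most genes moved the same way in neutrophils.

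At 14 dpi 4 genes (Fth1, Ftl1, Cd163, Hp) were at least 2-fold higher in microglia than in the ActD sham and 0 lower, where 3.64% and 11.4% of tested genes were. Slc40a1 became 2-fold lower with merged libraries (log2 ratio -1.06) and with the Spp1-led cells counted as microglia (-1.44). Tfrc did so with each library clustered alone (-1.36), with merged libraries (-1.16) and at resolution 1.2 (-1.05). Cd163 rested on 17 against 5 UMIs and lost its call in 3 settings. Microglial Hp was at 8.29 CPM against 8.55 in T cells at 14 dpi, and the summed neutrophil markers of microglia were at 965 CPM against 373 in the ActD sham. From 3 to 14 dpi microglia had 2 genes higher (Slc40a1, Slc11a1) and 5 lower (Hmox1, Fth1, Ftl1, Slc48a1, Cd163), where 17.1% of tested genes were higher and 15.9% lower. Fth1 was at 2.04-fold in this comparison and Slc11a1 at 2.13-fold, near the limit. With the Spp1-led cells counted as microglia, the log2 ratio of Fth1 went from -1.03 to -0.44. Injury macrophages had 1 gene higher (Slc40a1) and 3 lower (Hmox1, Ftl1, Slc48a1) at 14 dpi, where 17.8% and 9.86% of tested genes were. The marker levels of this class also differed between the times. The summed injury macrophage markers were at 61409 CPM at 3 dpi and 14256 at 14 dpi. Arg1 went from 4670 CPM (99.2% of cells) to 6.00 CPM (3.90%), whereas the injury macrophage marker Gpnmb was higher in CPM at 14 dpi. The part of these shifts in the ratios of injury macrophages between the times was not tested. Between the sham libraries, microglia of the standard sham had 4 of 9 genes higher (Hmox1, Fth1, Ftl1, Hp) and 2 lower (Slc40a1, Tfrc), where 5.93% and 22.5% were. Both lower calls were lost with TMM, that of Tfrc also with merged libraries, and that of Hp with the stricter cell filter and at a raised doublet rate.

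**Figure D4:**
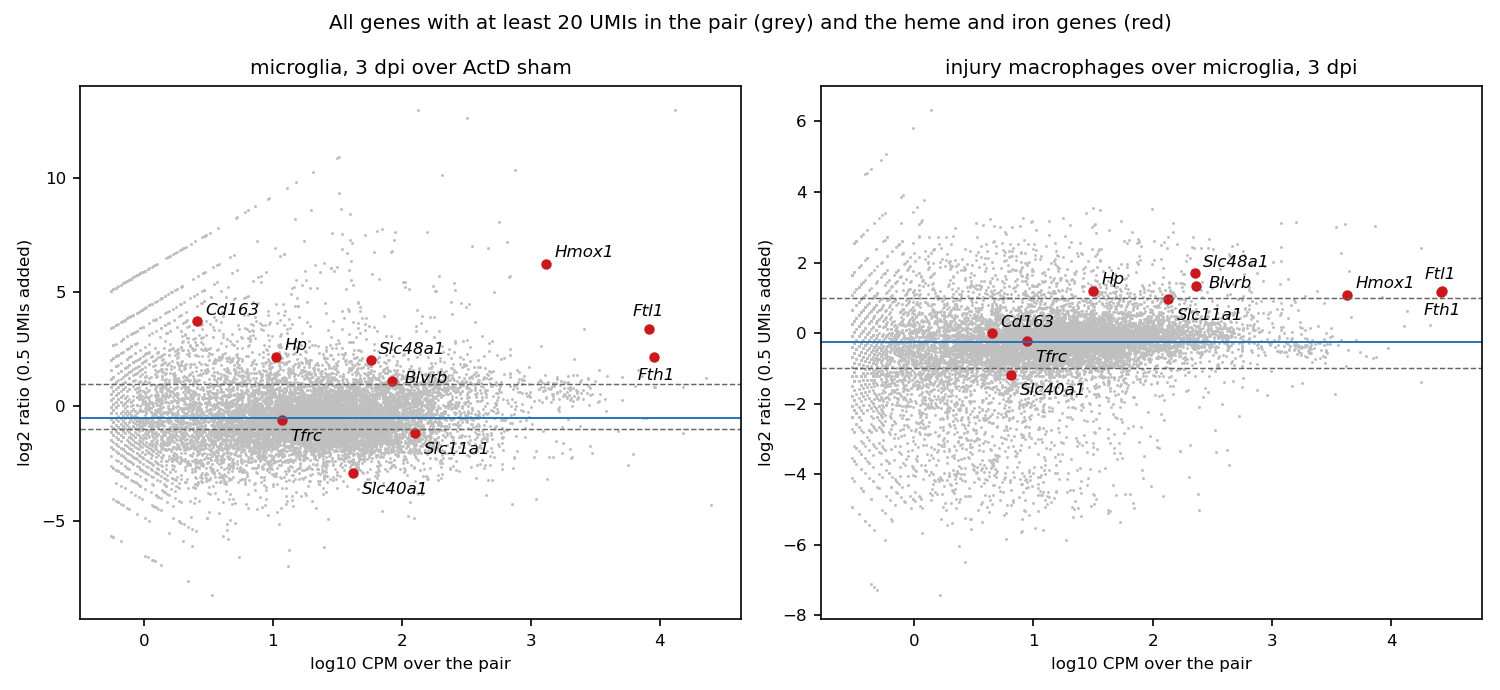
Log2 ratio (0.5 UMIs added to each sum) against log10 CPM for every gene that reached 20 UMIs in the pair (grey) and the 10 genes (red), in microglia at 3 dpi over ActD sham (left) and injury macrophages over microglia at 3 dpi (right); the blue line is the median of all genes and dashed lines mark 2-fold. Hmox1 lies at 6.24 and Slc40a1 at -2.91 in the left panel.

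Injury macrophages and microglia came from the same 3 dpi library and were compared directly. In injury macrophages 6 of the 10 genes were at least 2-fold higher (5.99% of tested genes) and 1 lower (17.0%). Hmox1 was 2.13-fold higher (2.11 to 2.15), Blvrb 2.53-fold, Fth1 2.24-fold, Ftl1 2.27-fold, Slc48a1 3.26-fold (3.103 to 3.43) and Hp 2.31-fold, while Slc40a1 was 2.26-fold lower. The call of Slc40a1 was lost with TMM and that of Hp when libraries were merged without integration. The median of the 10 genes was 1.13 and that of all tested genes -0.27. Most of these ratios lay close to 2-fold, and the log2 ratio of Hmox1 went from 1.09 to 0.87, with the 2-fold call of Ftl1 also lost, when cells had to have 1000 genes and no more than 5% mitochondrial UMIs, which left 418 microglia. Against border macrophages, injury macrophages had 20.4-fold less Cd163 (17.3 to 24.0), 2.11-fold more Fth1 and 2.16-fold more Ftl1.

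Within the classes, clusters spanned a wide range. None of the 10 genes had entered the clustering, but genes that vary with them had, so these values are a description. The 1271 injury macrophages led by Fabp4 and Fabp5 had 6990 CPM of Hmox1 and 357 of Slc48a1. Against cells of other classes in that library they were led by Pf4, with Hmox1 itself among the 10 leading genes. Other injury macrophage clusters did not enter that ranking. The 887 led by Gpnmb, which shared Fabp4 and Fabp5 as leading genes, had 2156 CPM of Hmox1 and 209 of Slc48a1, but the highest Blvrb of the 3 clusters (343 CPM against 275 and 138). The 489 led by Ppbp and Ccl24 had 5294 CPM of Hmox1. Ferritin varied less among them, from 27786 to 33650 CPM for Fth1.
Among microglia at 3 dpi, the 194 cells led by the homeostatic genes Siglech and Sparc had 632 CPM of Hmox1 and 9159 of Fth1, whereas the 242 led by Npy and Ch25h had 3909 CPM and 18422. Clusters led by cell cycle genes lay between, with 1807 CPM of Hmox1 in the 245 cells led by Prc1 and Nusap1 and 2671 in the 222 led by Ccne2 and Clspn. At 14 dpi the neutrophils were split too. The 430 led by the granule genes Ltf, Ngp and Camp had 18.1 CPM of Hmox1 and 1658 of Fth1, and the 328 led by Cxcl2 had 366 and 23457.

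**Figure D5:**
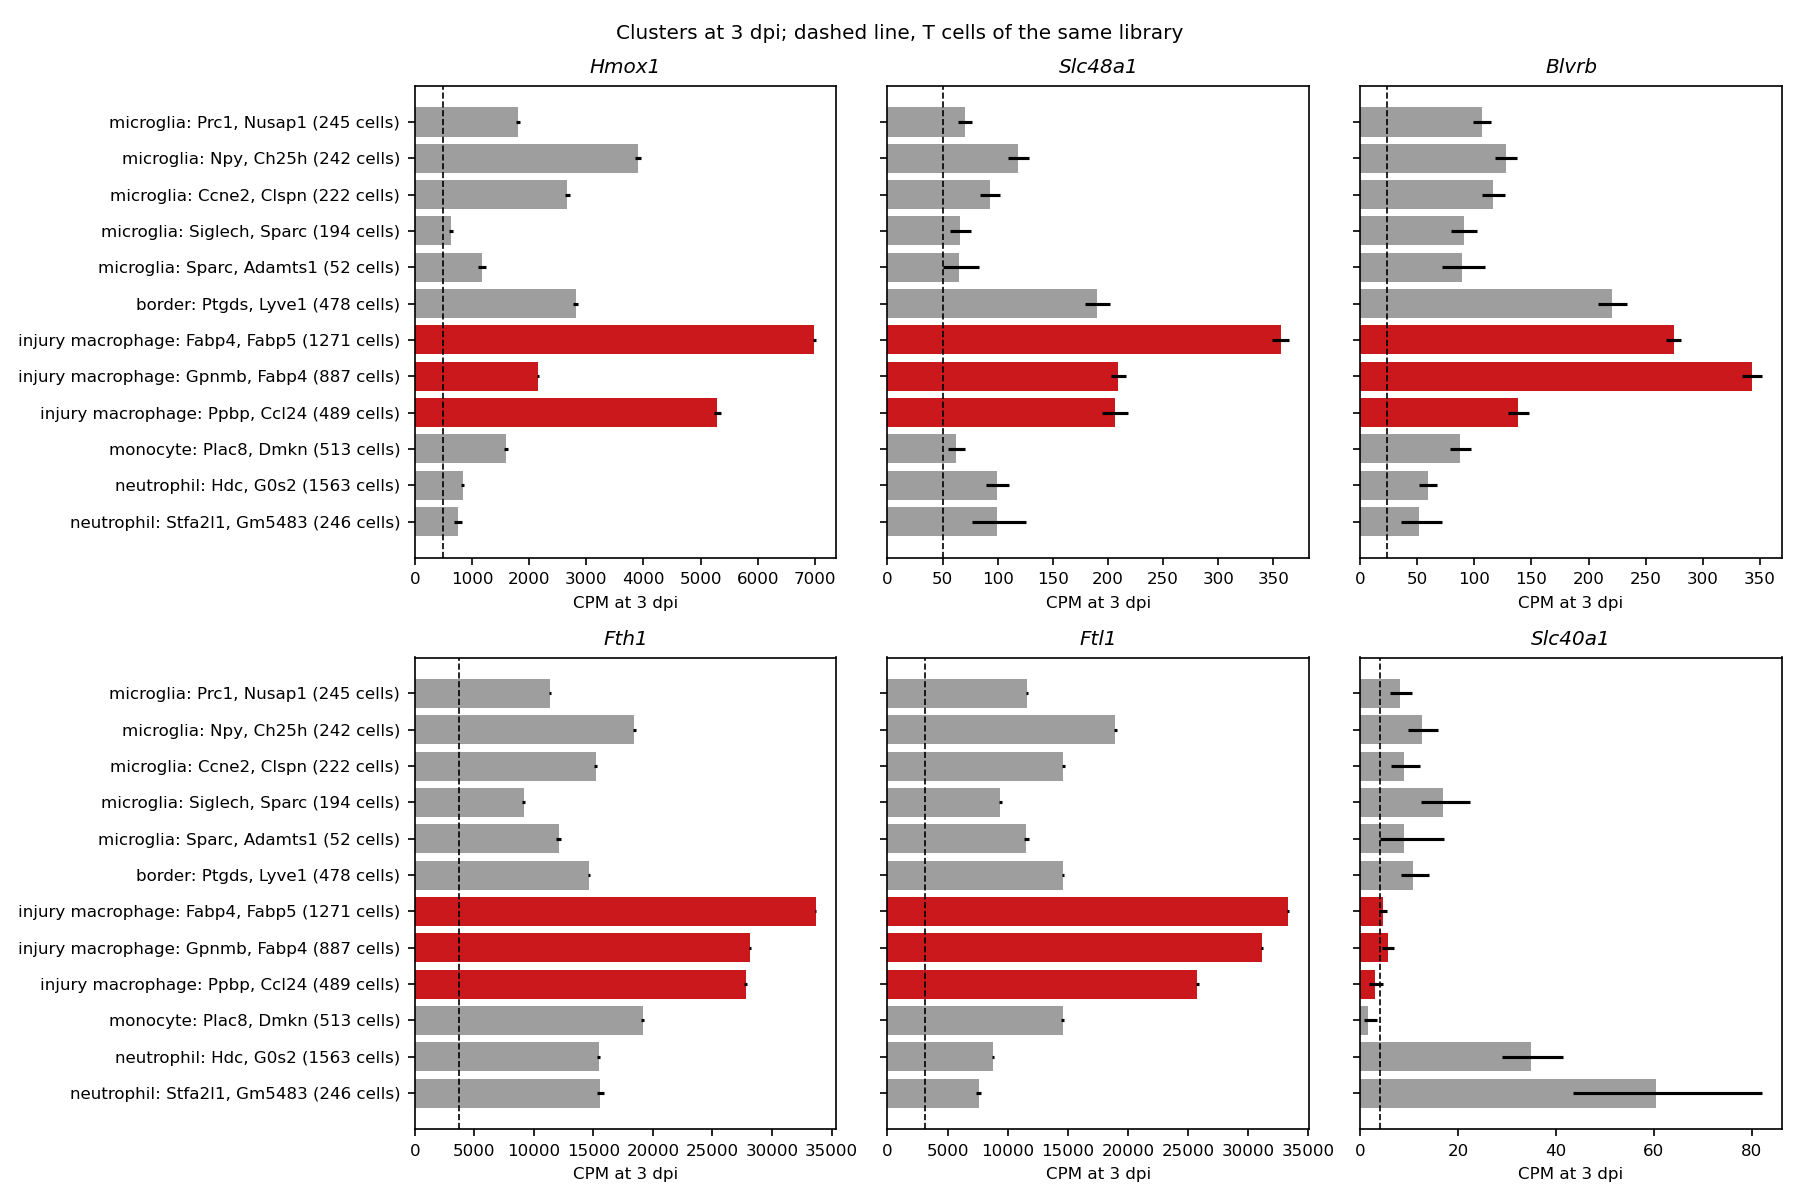
CPM of 6 genes in clusters of at least 50 cells at 3 dpi, labelled by their leading genes and cell numbers (bars with 95% exact Poisson intervals; red, injury macrophages; dashed line, T cells of that library). Hmox1 spans 632 CPM in the Siglech-led microglia to 6990 CPM in the Fabp4-led injury macrophages.

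The genes most like Hmox1 over 33 sums of class and library were Ftl1 (Pearson r of log2(CPM + 1) 0.90), its copy Ftl1-ps1 (0.89), the endolysosomal channel gene Tpcn2 (0.87), the monocyte chemoattractant Ccl2 (0.86) and Gm47428 (0.85), among 12019 genes. Fth1 was at rank 22 (0.79), Slc11a1 at 78 (0.72), Slc48a1 at 513 (0.54) and Tfrc at 10672 (-0.47). The sums share libraries, depth and free RNA, and the values describe a likeness only.

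Beside the 10 genes, 49 genes of heme and iron metabolism and its control were examined. In microglia at 3 dpi 10 of the 42 tested were at least 2-fold higher than in the ActD sham (13.7% of all tested genes) and 10 lower (32.9%), with a median log2 ratio of -0.39 against -0.53 for all genes. Of the targets of NRF2, the regulator that also drives Hmox1, 4 of 4 tested were higher (median 2.50), with Slc7a11, the cystine transporter subunit, going from 1.35 to 32.6 CPM, the sulfiredoxin gene Srxn1 from 1.41 to 19.6 CPM, Gclm from 33.3 to 78.5 CPM and Txnrd1 from 37.3 to 86.2 CPM. T cells of the 3 dpi library had 18.6 CPM of Slc7a11, so microglia were 1.76-fold above them (1.26 to 2.52), and 1 of the 4 targets was at least 2-fold above T cells. Neutrophils of that library had 535 CPM of Slc7a11. Bach1, the heme-sensitive repressor of Hmox1, went from 147 to 54.4 CPM, and transferrin (Trf) from 917 to 201 CPM. Slc39a14, a carrier of iron not bound to transferrin, went from 15.0 to 59.4 CPM.
At 14 dpi 4 of 4 tested NRF2 targets were at least 2-fold lower than at 3 dpi in microglia, as were 15.9% of all tested genes. The listed target Nqo1 had too few UMIs to be tested in microglia, here and at 3 dpi over the ActD sham. Slc7a11 was at 2.04 CPM at 14 dpi, and Trf was back at 779 CPM. The ferroxidase ceruloplasmin (Cp), which works with ferroportin, was at 11.9 CPM against 2.51 at 3 dpi and 0.737 in the ActD sham. In border macrophages Cp went from 231 CPM in the ActD sham to 4.52 at 3 dpi and 76.5 at 14 dpi, and Trf from 1657 to 177 and 537. Lrp1, the receptor for heme bound to hemopexin, went from 138 to 676 CPM at 3 dpi. Slc7a11 was at 7.07 and 114 CPM in border macrophages of the ActD sham and 3 dpi libraries. In injury macrophages at 3 dpi Slc7a11 reached 127 CPM, 3.91-fold above microglia, and the heme exporter Flvcr1 25.6 CPM, 2.84-fold above, while the proton-coupled folate and heme carrier Slc46a1 was at 3.81 CPM against 36.9 in microglia. Between the shams, Slc7a11 was 8.76-fold and Srxn1 3.03-fold higher in microglia of the standard sham than in those of the ActD sham. Haemoglobin transcripts were at or below 38.7 CPM in the 5 classes of all libraries.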

How the data were processed

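Single CD45+ cells from a cord segment centred on the lesion were captured as 10x 3′ libraries. The deposited values are raw UMI counts, made by the authors with Cell Ranger on mm10 (submitters' processing notes; the matrix headers name software versions 3.0.1 and 3.1.0, which differ between the shams and between the injured libraries). Mice of both sexes were divided at random into a control and 2 injury groups; how many entered each library, and how the control mice were split between the shams, is not given in the sources used here. Each library is 1 sample. The 10 genes, the marker lists and the pathway lists were chosen with earlier results of these data known.

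From the counts, cells that had 600 or more genes, no more than 10% of UMIs from mitochondrial genes, and no Itgam beside marker genes of other lineages were kept, as in the study. Doublets were removed by Scrublet (scanpy 1.11.5) at 0.8% per 1000 cells, which took out 291, 42, 774 and 931 cells (standard sham, ActD sham, 3 dpi, 14 dpi). Libraries were integrated with Seurat 5.3.0 anchors (2000 variable genes, 50 dimensions, resolution 0.6), with the 10 genes, the listed genes and sex-linked genes left out. Macrophages and monocytes were clustered again within each library. The thresholds for naming clusters (20 cells, 3 markers each in 25% of cells, a lead of 0.3 on the log2 scale) were set after the clusters had been seen, and 981, 218, 959 and 490 cells stayed unnamed in the same order. UMIs were summed per class and library. Intervals are exact (Poisson for CPM, conditional for ratios, Clopper-Pearson for shares; scipy 1.17.1) and cover counting error only. Calls added 0.5 UMIs to each sum. Of the 49 other genes, the 4 highest and 4 lowest in each comparison with at least 20 UMIs qualified to be named. Gclm and Txnrd1 in microglia, outside that rule, were added after their values were seen to complete the tested NRF2 targets. Likeness to Hmox1 used sums of 50 or more cells and genes with 200 or more UMIs, and the 5 most alike were named. TMM factors came from edgeR 4.0.16. The code was tested on simulated counts with known changes. The limit set for the share of large changes recovered was lowered after the comparison with the smallest class had fallen just under it. Sequences and coordinates are from GRCm38 with its GENCODE annotation.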

Additional observations from a re-analysis of the deposited data

Results flagged for a closer look

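With 1 library per condition, the ratios below are listed because the same contrast pointed in opposite directions in different classes with intervals that excluded no change; the difference between classes was not tested. At 3 dpi over the ActD sham, Cd163 had a log2 ratio of 3.86 in microglia (89 against 5 UMIs) and -2.82 in border macrophages. Hp had 2.18 in microglia and 6.87 in border macrophages (1 UMI in the sham) but -1.65 in neutrophils. Slc11a1 had 1.55 in neutrophils and -1.17 in microglia. From 3 to 14 dpi, Cd163 had 1.51 in border macrophages and -1.95 in microglia, Hp had 1.15 in neutrophils and -3.14 in border macrophages (6 against 507 UMIs), and Slc11a1 had 1.09 in microglia and -1.41 in neutrophils. The Hp call in border macrophages was lost with merged libraries (log2 ratio -0.74) and at resolution 1.2 (-0.086). Both Slc11a1 calls of each contrast were lost with TMM. Beside these, the summed neutrophil markers in neutrophils were at 54676 CPM at 3 dpi, 358942 CPM in the ActD sham and 371935 CPM at 14 dpi, and the T cells of the 3 dpi library carried 21.1 CPM of Hp and 2.01 CPM of Cd163. Their part in the opposite directions was not tested.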

How the results depend on the processing

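Over 18 comparisons and 8 alternatives, 599 of 639 called member ratios kept their call, and 40 lost it (13 with TMM), of which 2 reversed. These numbers leave out ratios with too few UMIs to be tested in an alternative, and classes not named there. Left out in this way were losses of Cd163 in microglia at 14 dpi over the ActD sham, with each library clustered alone and with the stricter cell filter. Calls gained in an alternative, such as those of Tfrc and Hmox1 in that comparison, are not counted either. The reversed ratio was Cd163 in border macrophages from 3 to 14 dpi, which went from 1.51 to -0.18 when each library was clustered alone and to -0.046 when libraries were merged without integration; there 273 and 272 cells took the place of 97, and no injury macrophages were named at 14 dpi. The log2 ratio of Hmox1 in microglia at 3 dpi over the ActD sham (6.24) was 6.11 with merged libraries, 6.08 at resolution 1.2, 6.47 with the stricter cell filter, 6.69 with TMM and, in alternatives chosen after seeing the data, 6.04 with Spp1-led cells counted as microglia and 5.88 with the T and B cell level subtracted. Cd163 in border macrophages (-2.82) was -2.55 with each library clustered alone, -3.28 with the stricter filter and -2.45 with TMM. Hmox1 in injury macrophages over microglia (1.09) was 1.12 merged, 0.87 with the stricter filter, 1.18 at a raised doublet rate, 1.11 without cells with over 0.1% haemoglobin UMIs, 1.40 with TMM and 1.29 after subtraction. At a fold of 1.5, 8 members in place of 4 were called in microglia at 14 dpi over the ActD sham (6 higher, 2 lower). The share of all tested genes at that fold was not computed, so this count has no background to be read against. Fth1 in microglia from 3 to 14 dpi lost its call in 4 settings, and Cd163 in microglia at 14 dpi over the ActD sham in 3. Most neutrophil values from 3 to 14 dpi moved with TMM, which ended the calls of Blvrb, Fth1, Ftl1 and Slc11a1; the causes were not tested. No paired analysis was possible because each condition has 1 library, and no replicate could be left out. Depth limits Cd163, Hp and Slc40a1 in microglia and every sum of the 22 sham monocytes.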

Other observations

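The 90 erythroid-like cells of the 14 dpi library had the highest Tfrc of any class there, 277 CPM (253 to 303), and the highest Blvrb, 923 CPM (878 to 969), with Hmox1 at 1.72 CPM (3 UMIs) and Slc40a1 at 26.4 CPM. B cells were second to them for Tfrc at 14 dpi. Their level was 75.8, 56.8, 17.1 and 106 CPM in standard sham, in ActD sham, at 3 dpi (6 UMIs) and at 14 dpi, and their Blvrb was at 224, 232, 108 and 140 CPM. In B cells at 3 dpi Hmox1 was at 606 CPM, whereas the 64 B cells of the ActD sham held 0 UMIs, which makes the 3 dpi level at least 85.4-fold higher against a floor of 3 UMIs over the group. T cells of the 3 dpi library, used above as its background, also held Hmox1. Their median depth was 3655 UMIs against 2504 in B cells, and the part of free RNA in the B-cell level was not tested. In the Gpnmb-led cells that stayed unnamed at 14 dpi (196 cells) Hmox1 was at 202 CPM and Fth1 at 17748 CPM, between microglia and injury macrophages of that library for Fth1.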
